A study of Mus musculus with 3 samples.

Results

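Eph receptors and ephrins were followed by 8 genes in nephron progenitors of the fetal mouse kidney, the mesenchymal cells from which nephrons form. The genes encode the receptors Epha3, Epha4, Epha7, Ephb2 and Ephb3 and the ligands Efna5, Efnb1 and Efnb2. They were picked by symbol from the 27998 genes in the count matrix, and each symbol matched 1 row. The cells came from Six2GFP+ embryos at E14.5 (days of embryonic development). Each of 3 tubes held pooled kidneys from more than 1 litter, so no value belongs to a single animal. Cells were sorted on the green fluorescence of Six2GFP, with dead cells gated out by propidium iodide and debris and doublets by size. The tubes were run side by side as 3 libraries of the Chromium system (version 2 kit), and the labels put all 3 in 1 group with no treatment. The sources used here do not give the construct behind the fluorescence.

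Cells were put in 3 classes by raw counts of unique molecular identifiers (UMIs, each standing for 1 captured transcript) of Six2, Wnt4 and Lhx1. Six2 is a transcription factor that keeps progenitors self-renewing, Wnt4 is the signal that starts their change into epithelium, and Lhx1 is a transcription factor of the first epithelial nephron stages. Six2 cells held at least 1 UMI of Six2 and 0 of Wnt4 and Lhx1, Wnt4 cells at least 1 of Wnt4 and 0 of Lhx1, and Lhx1 cells at least 1 of Lhx1. The classes are given below in this order of stages. A set of 36 cells with Six2, Lhx1 and no Wnt4 met the definitions of both the first and the last class and was counted with the Lhx1 cells. Of 7896 cells, 6011 were Six2 cells (76.1%), 413 were Wnt4 cells (5.23%) and 79 were Lhx1 cells (1.0%). These shares are those of cells sorted on Six2GFP and classed at a threshold of 1 UMI. A single Wnt4 UMI put 281 of the Wnt4 cells in their class, and a single Lhx1 UMI put 47 of the Lhx1 cells in theirs. A cell with a marker UMI is not a pure stage: 319 of the Wnt4 cells also held Six2, and so did 48 of the Lhx1 cells.

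The libraries held 3023, 2759 and 2114 cells and 35264096 to 50882927 UMIs. The 9 sums of library and class ranged from 28314557 to 37287650 UMIs in Six2 cells, from 1511493 to 4279396 in Wnt4 cells and from 373985 to 758156 in Lhx1 cells, so levels in Lhx1 cells rest on few transcripts. Of 7874 barcode sequences, 22 occurred in more than 1 library. Stage markers that did not set the classes were read as a check. Pax8, a transcription factor of committing cells, was at 29.8 ± 5.30, 64.0 ± 8.73 and 169 ± 33.1 CPM (UMIs per 1000000 UMIs of the sum; SD, n = 3 libraries) in Six2, Wnt4 and Lhx1 cells, and the Notch ligand gene Jag1 at 0.447 ± 0.0686, 4.25 ± 2.56 and 32.2 ± 3.35 CPM. Of 8 ureteric epithelium markers 7 had UMIs in Lhx1 cells, and the summed level was 68.0 ± 11.1 CPM in Six2, 55.9 ± 6.41 in Wnt4 and 218 ± 132 in Lhx1 cells. Calb1, a ureteric calcium-binding protein, was at 0, 176 and 96.4 CPM in Lhx1 cells of libraries 1, 2 and 3. Immune markers summed to 6.18 ± 4.18, 19.4 ± 29.6 and 2.41 ± 4.18 CPM in Six2, Wnt4 and Lhx1 cells.

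Eph receptors are receptor tyrosine kinases of the cell surface, and ephrins are their ligands, which stay attached to the surface of the neighbouring cell. A-type ephrins are held by a lipid anchor and B-type ephrins cross the membrane, so that contact can signal into the ephrin-bearing cell as well as into the receptor-bearing one. The system is known for repulsion, sorting of cells and the making of tissue boundaries. In the mouse, Epha4 and Epha7 act in the joining of the nephric duct to the cloaca, and ephrin-B2 acts in the vessels of the kidney.

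The upstream sequences of Epha4 and Epha7 are shown because both receptor genes were lower in Six2 cells with Cited1 than in those without it, as described further below. Each run is the 250 bases before the start of the gene in RefSeq on GRCm38.p6, 5′ to 3′ on the strand of the gene. The Epha4 run lies at chr1:77515089-77515338 on the minus strand and the Epha7 run at chr4:28812881-28813130 on the plus strand.
Epha4: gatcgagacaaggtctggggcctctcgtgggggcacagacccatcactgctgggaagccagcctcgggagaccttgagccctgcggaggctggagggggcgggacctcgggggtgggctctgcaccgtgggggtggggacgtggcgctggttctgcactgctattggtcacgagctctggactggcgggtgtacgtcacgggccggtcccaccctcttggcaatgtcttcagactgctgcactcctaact
Epha7: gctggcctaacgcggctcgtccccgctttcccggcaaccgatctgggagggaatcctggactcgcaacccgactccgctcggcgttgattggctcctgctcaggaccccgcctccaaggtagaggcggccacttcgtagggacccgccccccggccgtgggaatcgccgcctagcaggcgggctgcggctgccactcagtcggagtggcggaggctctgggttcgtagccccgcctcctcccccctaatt
Motif matches would stand in capitals, and there were none. The letters CTTTGA of TCF/LEF factors, through which Wnt signals act on genes, and the letters TGATAC, bound by Six2 and its relatives, were searched on both strands. CTTTGA was in 14.05% and TGATAC in 4.68% of 27025 windows of this length, and neither was in the window of any of the 8 genes. The windows were rich in G and C, at 66% for Epha4 and 69.2% for Epha7.

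The A-type receptors were found at 3 very different levels. The kit counts transcript ends, so CPM is not scaled by gene length. Epha4 (ENSMUSG00000026235, chromosome 1, 77367185 to 77515088, mm10), a receptor that binds both A-type and B-type ephrins, was the most abundant receptor of the 8 genes. It was at 23.6, 29.8 and 25.2 CPM in Six2 cells of libraries 1, 2 and 3, at 28.5, 21.2 and 21.9 CPM in Wnt4 cells, and at 34.3, 26.7 and 45.8 CPM in Lhx1 cells. The ranges of Six2 and Wnt4 cells overlapped, and so did those of Lhx1 cells with both. Epha7 (ENSMUSG00000028289, chromosome 4, 28813131 to 28967499), a receptor of A-type ephrins known from axon guidance, was at 7.64, 10.1 and 6.83 CPM in Six2 cells, at 11.5, 9.26 and 15.3 CPM in Wnt4 cells and at 25.1, 26.7 and 4.82 CPM in Lhx1 cells. Libraries 1 and 2 were highest in Lhx1 cells, while library 3 was lowest there, on 2 UMIs in 19 cells (exact 95% Poisson interval 0.584 to 17.4 CPM, counting error only). Epha3 (ENSMUSG00000052504, chromosome 16, 63543534 to 63864175), a receptor with high affinity for ephrin-A5, had few or no UMIs. It had 18 UMIs in all Six2 cells, or 0.191 CPM, and 0 among 8212716 UMIs of Wnt4 cells, which allows up to 0.365 CPM, and 0 among 1547000 UMIs of Lhx1 cells, which allows up to 1.94 CPM.

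**Figure D1:**
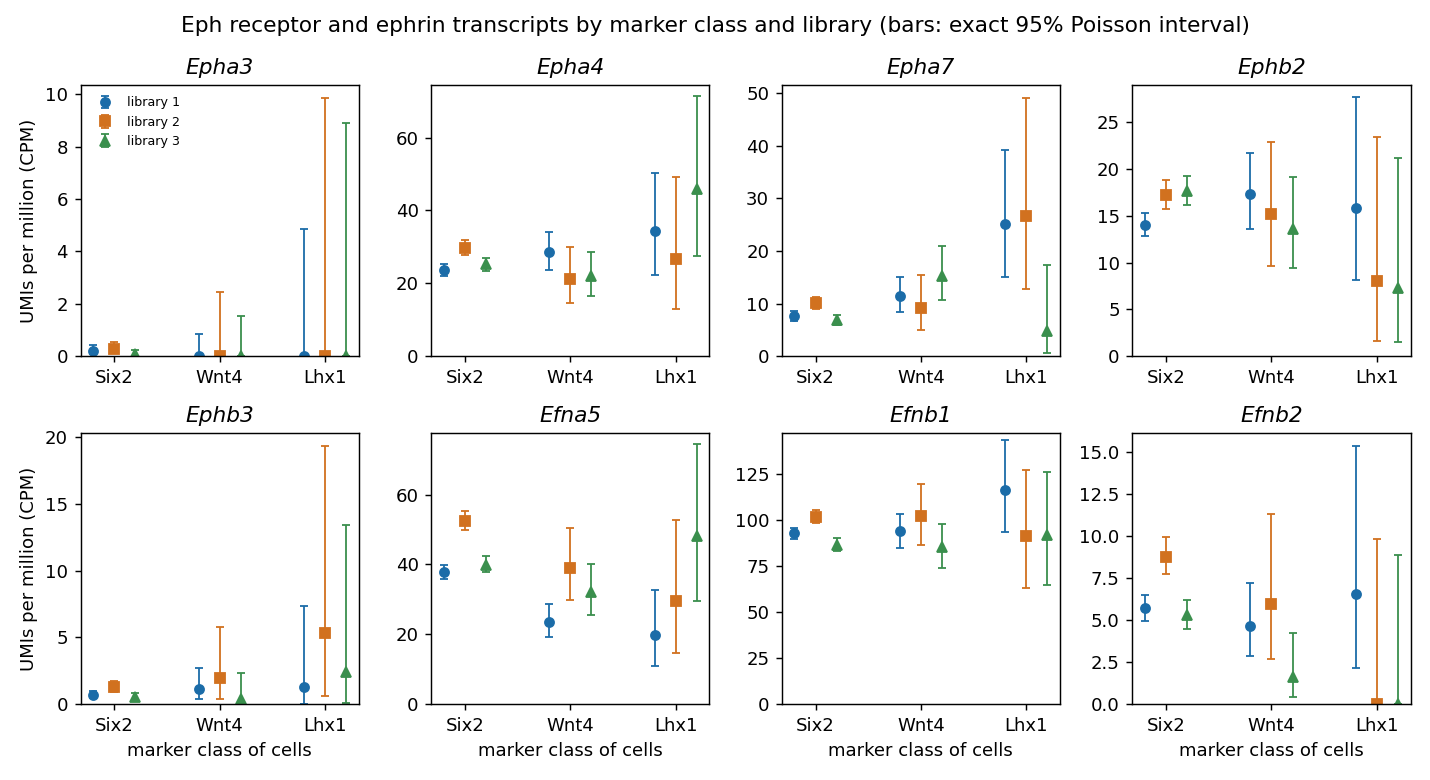
Level of each of the 8 genes in CPM (linear axis from 0, a different scale for each gene) in Six2, Wnt4 and Lhx1 cells, with 1 point per library and bars for the exact 95% Poisson interval of the count. Efna5 is lower in Wnt4 than in Six2 cells of each library, Efnb1 lies between 85.1 and 116 CPM in the 9 sums, and the intervals are widest in Lhx1 cells.

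The B-type receptors had overlapping ranges in Six2 and Wnt4 cells. Ephb2 (ENSMUSG00000028664, chromosome 4, 136647539 to 136835988), a receptor of B-type ephrins that also binds ephrin-A5, was at 14.0, 17.2 and 17.6 CPM in Six2 cells, at 17.3, 15.2 and 13.6 CPM in Wnt4 cells and at 15.8, 8.02 and 7.23 CPM in Lhx1 cells. Libraries 2 and 3 of the Lhx1 class were below all other sums, on 3 UMIs each. Ephb3 (ENSMUSG00000005958, chromosome 16, 21204755 to 21223305), which with Ephb2 positions cells along the crypts of the mouse gut, had 77 UMIs in Six2 cells (0.816 CPM), 9 in Wnt4 cells (1.10 CPM) and 4 in Lhx1 cells (2.59 CPM). Its counts were too low for the test between classes.

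Among the ligands Efnb1 was by far the highest. Efnb1 (ENSMUSG00000031217, chromosome X, 99136130 to 99148991), a transmembrane ligand that patterns the skull and face, was at 92.6, 102 and 86.5 CPM in Six2 cells, 93.7, 102 and 85.1 CPM in Wnt4 cells and 116, 90.9 and 91.6 CPM in Lhx1 cells. The libraries differed among themselves as much as the classes did. Efna5 (ENSMUSG00000048915, chromosome 17, 62604184 to 62881317), a lipid-anchored ligand of Epha3, Epha4 and Epha7, was at 37.7, 52.4 and 40.0 CPM in Six2 cells, at 23.6, 39.0 and 32.2 CPM in Wnt4 cells and at 19.8, 29.4 and 48.2 CPM in Lhx1 cells. Efnb2 (ENSMUSG00000001300, chromosome 8, 8617434 to 8661242), a transmembrane ligand known as a marker of arteries, was at 5.71, 8.79 and 5.29 CPM in Six2 cells, at 4.67, 5.95 and 1.65 CPM in Wnt4 cells and at 6.59, 0 and 0 CPM in Lhx1 cells, the last on 5 UMIs in all.

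The share of cells with a UMI followed the same order of genes. Each cell was thinned to 8000 UMIs for this, which left 5795 Six2, 404 Wnt4 and 78 Lhx1 cells. Efnb1 was found in 51.2% of Six2, 49.3% of Wnt4 and 44.9% of Lhx1 cells (71.9%, 74.8% and 78.5% before thinning). Efna5 was found in 26.6%, 23.0% and 16.7% (41.4%, 39.5% and 34.2% before thinning), and Epha4 in 17.2%, 18.1% and 24.4% (27.8%, 31.7% and 34.2% before thinning). The exact 95% binomial interval of Epha4 in Lhx1 cells, 15.3% to 35.4%, held the shares of the other classes. Epha7 was found in 6.45%, 9.65% and 12.8% (11.1%, 20.8% and 17.7% before thinning), and Ephb2 in 11.6%, 11.6% and 7.69% (21.5%, 27.6% and 21.5% before thinning). In 48 thinned immune cells, which carry at least 3 of 6 immune markers and are given for comparison, Efnb1 was found in 10.4%, Epha4 and Efna5 in 2.08% each, and Epha7, Ephb2 and Efnb2 in 0, with an exact upper bound of 7.40%. Whether UMIs in these cells are free RNA, come from doublets or are their own was not tested. Median depth before thinning was 9468 UMIs in immune cells and 14742 in Six2 cells. All 73 immune cells, before thinning, held 0 UMIs of Epha7 and of Efnb2, with an exact 95% upper bound of 4.93 CPM. Six2 cells were above that bound, at 8.13 CPM of Epha7 (interval 7.57 to 8.73) and 6.51 CPM of Efnb2 (interval 6.01 to 7.05), while the thinned shares of 6.45% and 5.33% lie under the bound that 48 cells allow.

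Whether the family changes when progenitors switch on Wnt4 was asked by comparing Wnt4 with Six2 cells. Efna5 fell, to 31.6 ± 7.73 CPM in Wnt4 cells, against 43.4 ± 7.94 CPM in Six2 cells (SD, n = 3 libraries), and it was lower in 3 of 3 libraries. The log2 change was -0.50 ± 0.11 (SE; edgeR adjusted p = 0.00472). Efna5 was the only member called of 6 tested, where 10.2% of all 10240 genes passed, 4.86% higher and 5.34% lower. Epha7 had a log2 change of 0.62 ± 0.22 (edgeR adjusted p = 0.0813), with 2 of 3 libraries higher, and Efnb2 one of -0.65 ± 0.31 (edgeR adjusted p = 0.211), with 3 of 3 lower. For Efnb1 the change was -0.0086 ± 0.066, with a 95% interval of -0.14 to 0.13, and for Epha4 and Ephb2 the intervals ran from -0.32 to 0.24 and from -0.36 to 0.32. The Efna5 call was lost without library 1 (edgeR adjusted p = 0.246), with DESeq2 (adjusted p = 0.159) and with no library block (edgeR adjusted p = 0.349). With cells thinned to 8000 UMIs before classing its change was -0.25 ± 0.18 (edgeR adjusted p = 0.547), while a threshold of 2 Wnt4 UMIs gave -0.72 ± 0.18 (edgeR adjusted p = 0.00243).

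Markers of other cell types also differed between these classes. The summed stroma markers were at 27.3 ± 4.49 CPM in Wnt4 and 35.3 ± 5.52 CPM in Six2 cells, with all 6 detected in both, and podocyte markers at 17.1 ± 8.29 and 31.5 ± 7.33 CPM. Median depth was 18385 UMIs per cell in Wnt4 and 14742 in Six2 cells. Muscle markers (Myod1, Myog, Myf5 and Des) summed to 241, 294 and 212 CPM in Wnt4 cells of libraries 1, 2 and 3, against 326, 413 and 327 CPM in Six2 cells, with Myog and Myf5 at 0 in Wnt4 cells. In Lhx1 cells the list summed to 212 ± 47.9 CPM with Myod1, Myog and Myf5 all at 0, so Des alone gave that level. The part of Des in the sums of Wnt4 and Six2 cells was not separated. Markers of uncommitted progenitors, with Six2 left in the list, summed to 1097 ± 292 CPM in Wnt4 and 1565 ± 306 CPM in Six2 cells. Six2 itself was at 110 ± 20.1 CPM in Wnt4 and 166 ± 31.7 CPM in Six2 cells. Part of this difference is set by the class rule, which requires Six2 in Six2 cells only. The part of these markers in the Efna5 result was not tested. Without cells carrying ureteric or immune markers, a setting that leaves the stroma, podocyte and muscle lists as they are, the Efna5 change was -0.51 ± 0.11. In pooled sums, fewer cells with the gene and less RNA per cell cannot be told apart.

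At the next stage, in Lhx1 against Wnt4 cells, no member of the 6 tested passed edgeR, and DESeq2 called 0 as well. At an unadjusted p under 0.05 the count was 0 too, and 1.15% of all genes passed the adjusted threshold, 0.996% higher and 0.156% lower. Epha4 was at 35.6 ± 9.60 CPM in Lhx1 and 23.9 ± 4.05 CPM in Wnt4 cells, with 3 of 3 libraries higher and a log2 change of 0.50 ± 0.26 (edgeR adjusted p = 0.605). The 95% interval of that change, -0.04 to 1.04, holds 0 as well as 1. For Efnb2, with 5 UMIs in Lhx1 cells, the interval was -1.99 to 1.296.

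Over the whole span, Epha7 was the only member called in Lhx1 against Six2 cells, of 6 tested, where 5.17% of all genes passed, 3.31% higher and 1.86% lower. It averaged 18.9 ± 12.2 CPM in Lhx1 cells and 8.19 ± 1.70 CPM in Six2 cells (SD, n = 3), with a log2 change of 1.31 ± 0.38 (edgeR adjusted p = 0.044; DESeq2 adjusted p = 0.0471) and 2 of 3 libraries higher. The 31 UMIs lay in 14 of 79 cells, 7 of them in 1 cell of library 1, and without that cell library 1 was at 17.2 CPM. Lhx1 cells with 2 or more Lhx1 UMIs held 42.6, 40.4 and 4.07 CPM of Epha7, against 2.98, 20.0 and 5.92 CPM in those with 1 UMI, a split chosen after the values were seen. With at least 2 marker UMIs required the change against Six2 cells was 1.91 ± 0.43 (edgeR adjusted p = 0.000973). It rested on 24 Epha7 UMIs in 9 of 32 Lhx1 cells, 7 of them in 1 cell. In library 3 these Lhx1 cells, at 4.07 CPM, were below the Six2 cells, at 6.83 CPM. The call was lost without library 1 (0.86 ± 0.61, edgeR adjusted p = 0.676) and without library 2 (1.27 ± 0.43, edgeR adjusted p = 0.0763). It was also lost with no library block (edgeR adjusted p = 0.221) and without cells whose barcode holds 10 or more A and T bases (edgeR adjusted p = 0.0892). Ureteric markers, given above, were also higher in the Lhx1 class, and their part in the Epha7 result was not tested. Only 4 of the 79 Lhx1 cells held a UMI of Calb1, Gata3, Ret or Wnt11. Without such cells and immune cells, the Epha7 change was 1.33 ± 0.38 in a class that was almost the same. The 3 comparisons of classes share cells, so their results are not independent.

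**Figure D2:**
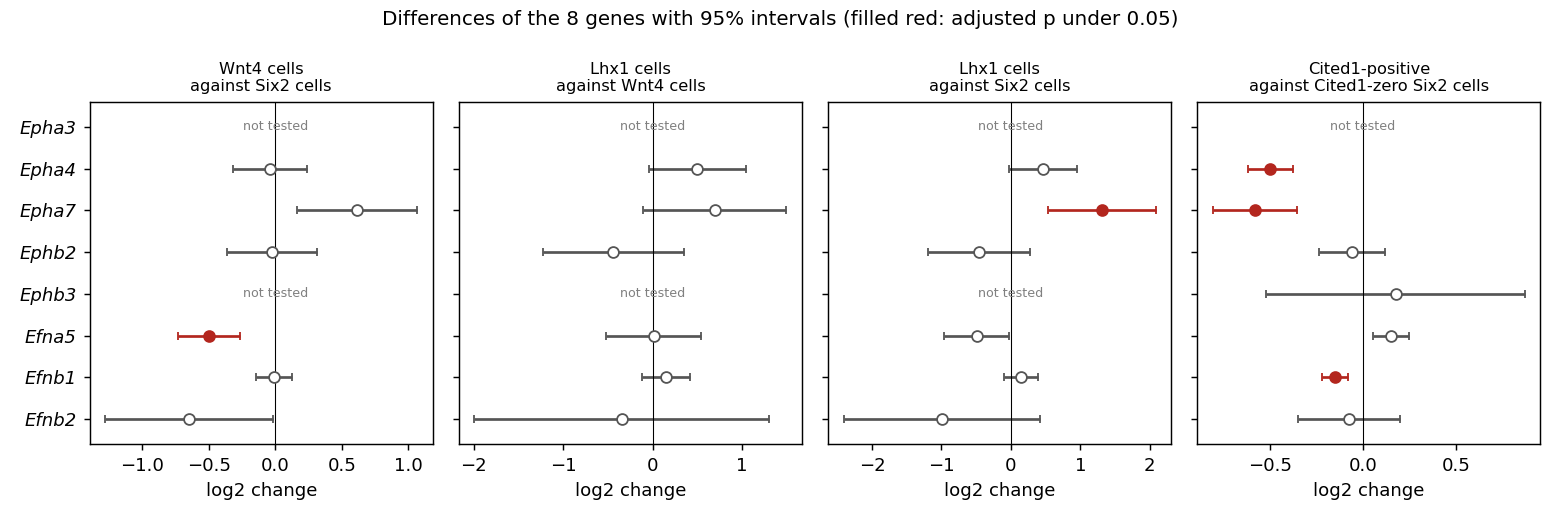
Log2 change of each gene in 4 comparisons, with the 95% interval of the edgeR fit; the horizontal scale differs between panels, filled red points passed an adjusted p of 0.05 and open points did not. Efna5 passed in Wnt4 against Six2 cells, Epha7 in Lhx1 against Six2 cells, and Epha4, Epha7 and Efnb1 in Cited1-positive against Cited1-zero Six2 cells.

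Inside the Six2 class, cells with and without Cited1 were compared. Cited1, whose protein acts with transcription factors and marks the earliest progenitors, was found in 3908 Six2 cells and not found in 2103. The A-type receptors Epha4 and Epha7 fell in Cited1-positive cells. Epha4 was at 21.2, 25.1 and 23.0 CPM in Cited1-positive cells of libraries 1, 2 and 3, against 28.4, 39.1 and 30.3 CPM in Cited1-zero cells. The groups did not overlap, and the log2 change was -0.50 ± 0.059 (edgeR adjusted p = 1.16e-06). Epha7 was at 6.51, 8.95 and 5.81 CPM in Cited1-positive cells, against 10.0, 12.4 and 9.20 CPM in Cited1-zero cells, again without overlap, a log2 change of -0.58 ± 0.11 (edgeR adjusted p = 0.000885). The ligand Efnb1 fell by less, to 90.2, 98.4 and 83.0 CPM in Cited1-positive cells, against 97.5, 108 and 94.9 CPM in Cited1-zero cells. Its log2 change was -0.15 ± 0.033 (edgeR adjusted p = 0.00454), lower in 3 of 3 libraries although the groups overlapped.

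These 3 genes were the members called of 7 tested, all lower, where 4.78% of 12470 genes passed, 2.84% higher and 1.94% lower. Efna5 was at 38.3, 54.3 and 42.2 CPM in Cited1-positive cells, against 36.5, 48.8 and 34.8 CPM in Cited1-zero cells. Its log2 change of 0.15 ± 0.046 did not pass (edgeR adjusted p = 0.0646), though 3 of 3 libraries were higher. It passed with no filter on low counts, without library 1, without ureteric or immune cells and with at least 2 marker UMIs (edgeR adjusted p of 0.0347 to 0.0479) and not under the others, where the lowest edgeR adjusted p was 0.0923. Ephb2, Ephb3 and Efnb2 had log2 changes of -0.06 ± 0.087, 0.17 ± 0.34 and -0.08 ± 0.13, with edgeR adjusted p of 0.848, 0.901 and 0.877. Cited1-positive cells were deeper, with median depths of 17098, 12696 and 16343 UMIs in libraries 1, 2 and 3, against 14790, 11524 and 14988.5 UMIs in Cited1-zero cells. With cells thinned to 8000 UMIs Epha4 still fell by 0.46 ± 0.092 on the log2 scale (edgeR adjusted p = 0.00189), while Epha7 (-0.49 ± 0.17, edgeR adjusted p = 0.244) and Efnb1 (-0.14 ± 0.049, edgeR adjusted p = 0.293) did not pass. No call held with no library block (edgeR adjusted p of 0.587 for Epha4 and Epha7), Efnb1 was not called by DESeq2 (adjusted p = 0.313) or without library 2 (edgeR adjusted p = 0.0516), and DESeq2 gave Epha7 no adjusted p.

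Of the marker lists beside this split, the summed committing markers were at 208, 261 and 212 CPM in Cited1-positive cells and at 234, 306 and 235 CPM in Cited1-zero cells, each with Wnt4 at 0 by definition. Podocyte markers were at 23.8, 37.3 and 24.0 CPM in Cited1-positive and at 34.1, 45.3 and 35.5 CPM in Cited1-zero cells, with 4 of 5 detected in both. Markers of uncommitted progenitors, summed without Cited1 and Six2, were at 1017, 1515 and 1137 CPM in Cited1-positive cells. In Cited1-zero cells they were at 1009, 1492 and 1152 CPM. Early nephron markers were at 4.13, 7.24 and 4.42 CPM in Cited1-positive and at 5.29, 6.29 and 3.96 CPM in Cited1-zero cells. Both lists went both ways over the libraries. Immune markers were at 12.9, 1.28 and 9.99 CPM in Cited1-positive and at 2.48, 1.89 and 1.75 CPM in Cited1-zero cells. Their part in the result was not tested; without ureteric or immune cells the Epha4 change was -0.49 ± 0.060.

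The number of Cited1 UMIs per cell was then used to divide the Six2 class further, a split chosen after the values were seen and given without a test. Epha4 averaged 32.6 ± 5.70, 25.4 ± 4.17, 26.9 ± 4.03 and 19.4 ± 0.796 CPM (SD, n = 3) in cells with 0, 1, 2 to 3 and 4 or more Cited1 UMIs. The lowest level was in the top group in every library. Epha7 averaged 10.5 ± 1.65, 7.29 ± 1.57, 7.18 ± 1.83 and 6.93 ± 1.73 CPM in the same order, so that the step lay between 0 and 1 UMI. Efnb1 averaged 100.2 ± 7.10, 94.8 ± 9.60, 90.9 ± 3.61 and 87.8 ± 8.95 CPM.

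**Figure D3:**
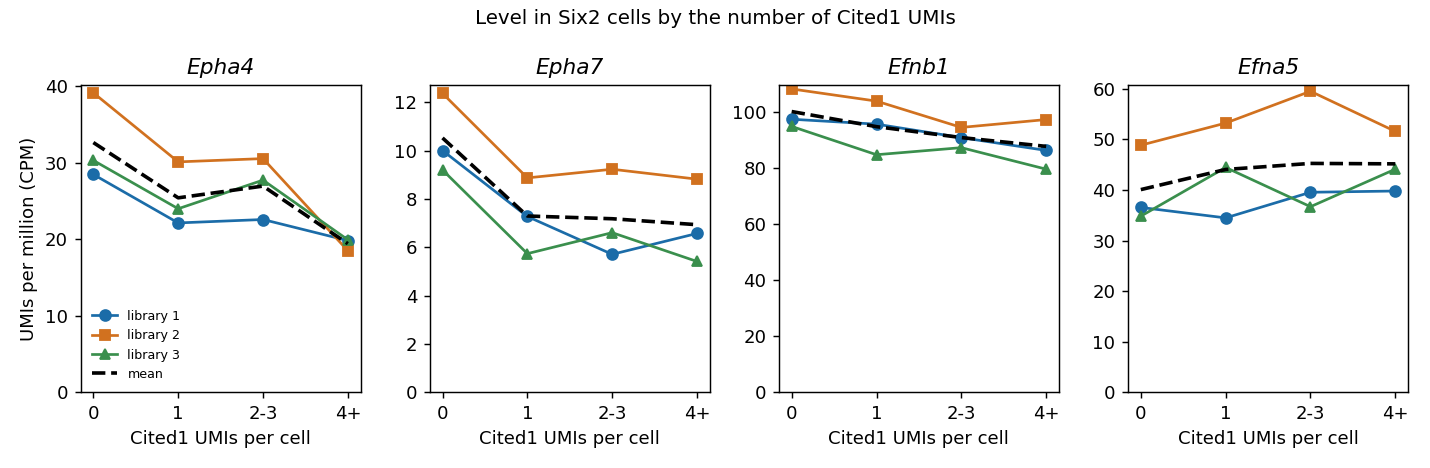
Level of Epha4, Epha7, Efnb1 and Efna5 in CPM (linear axis from 0) in Six2 cells with 0, 1, 2 to 3 and 4 or more Cited1 UMIs, with 1 line per library and a dashed line for the mean. Epha4 is lowest at 4 or more UMIs, at 18.5 to 19.9 CPM in the 3 libraries, and Epha7 is highest at 0 UMIs.

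Outside the Six2 class the same split, also chosen after the values were seen and not tested, went both ways for Epha4, Epha7 and Efnb1. In Wnt4 cells Epha4 was at 28.6, 23.1 and 19.7 CPM with Cited1 (210 cells), against 28.4, 18.6 and 24.4 CPM without it (203 cells). In 1324 cells with none of the 3 class markers, Epha4 was at 26.1, 26.5 and 24.6 CPM with Cited1, against 20.8, 40.1 and 25.1 CPM without it, so only libraries 2 and 3 were lower. Epha7 in those cells was at 9.37, 11.1 and 3.68 CPM with Cited1, against 8.74, 10.6 and 12.6 CPM without it, lower in library 3 only. Epha7 in Wnt4 cells was at 8.30, 12.7 and 13.7 CPM with Cited1, against 14.7, 4.65 and 17.2 CPM without it, lower in libraries 1 and 3. Efnb1 was lower in each library of the cells with no class marker, at 84.1, 116 and 88.0 CPM with Cited1, against 94.7, 119 and 100.5 CPM without it. In Wnt4 cells Efnb1 was at 88.5, 109.6 and 86.5 CPM with Cited1, against 99.0, 91.5 and 83.3 CPM without it, and libraries 2 and 3 were higher.

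The other 14 genes of the family passed in none of the 4 comparisons with edgeR, and DESeq2 called 0 of them in each as well. Of these, 8 were tested between classes and 9 in the Cited1 split. At an unadjusted p under 0.05 the count was 0 for Wnt4 against Six2 cells, 1 for each comparison with Lhx1 cells and 0 for the Cited1 split. Their median log2 change was -0.055 for Wnt4 against Six2 cells, where the median of all genes was -0.0094. Efna4, another lipid-anchored ligand, was at 47.9 ± 6.82, 47.5 ± 10.4 and 43.0 ± 6.84 CPM (SD, n = 3) in Six2, Wnt4 and Lhx1 cells. Ephb4, the receptor of ephrin-B2, was at 24.0 ± 5.06, 22.2 ± 6.57 and 18.6 ± 7.07 CPM. The ligands Efna1 and Efna2 were at 17.2 ± 2.79 and 17.3 ± 1.27 CPM in Six2 cells, at 15.3 ± 5.07 and 20.1 ± 2.68 CPM in Wnt4 cells and at 20.7 ± 7.82 and 24.0 ± 2.82 CPM in Lhx1 cells. Mean levels of Efnb3, Efna3, Ephb6 and Epha2 were between 4.55 and 11.6 CPM in Six2 and Wnt4 cells, and Efnb3 in Lhx1 against Six2 cells had a log2 change of -1.31 ± 0.49 (edgeR adjusted p = 0.153). Ephb1 was over 5 CPM in Lhx1 cells alone, at 0, 16.04 and 4.82 CPM on 8 UMIs. Epha6 had 0 UMIs, and Epha1, Epha5, Epha8 and Epha10 stayed below 1 CPM in Six2 and Wnt4 cells. Summed over all 9 A-type receptor genes, the level was 39.7 ± 5.56 CPM in Six2, 42.7 ± 7.22 in Wnt4 and 66.0 ± 0.883 in Lhx1 cells. The 5 B-type receptors stood at 49.1 ± 8.15, 47.1 ± 6.74 and 45.2 ± 14.2 CPM. These summed levels were not tested. Lhx1 cells of a library held 373985 to 758156 UMIs of all genes, so the small SD there is no measure of counting error. Single genes spread more in Lhx1 cells, with Epha4 at 35.6 ± 9.60 and Epha7 at 18.9 ± 12.2 CPM. Epha4 passed in no comparison of classes and Epha7 only in Lhx1 against Six2 cells.

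Of 40 genes for proteins that act with Eph receptors and ephrins, 36 were tested between classes. In Wnt4 against Six2 cells 1 rose, 2 fell and 33 did not pass, where 10.2% of all genes passed, and the median log2 change was -0.019. In this comparison, in Lhx1 against Six2 cells and in the Cited1 split the count of partners called was near the share over all genes, so it is no result about the list; in Lhx1 against Wnt4 cells it was 1 gene. Ptpn13, a phosphatase that binds the tail of B-type ephrins and removes their phosphate, was at 10.1 ± 2.43 CPM in Wnt4 and 2.33 ± 0.628 CPM in Six2 cells, higher in 3 of 3 libraries, with a log2 change of 2.03 ± 0.26 (edgeR adjusted p = 7.32e-06). Rgs3, which links B-type ephrins to G protein signals, fell to 22.0 ± 6.59 CPM in Wnt4 cells, against 32.8 ± 7.16 CPM in Six2 cells (log2 change -0.63 ± 0.12; edgeR adjusted p = 0.000775), lower in 3 of 3 libraries. Grb10, an adaptor of receptor tyrosine kinases, fell to 340 ± 18.5 CPM in Wnt4 cells, against 431 ± 17.2 CPM in Six2 cells (log2 change -0.35 ± 0.052; edgeR adjusted p = 6.87e-05). In Lhx1 against Wnt4 cells only Ptpn13 passed, at 25.01 ± 5.09 CPM in Lhx1 and 10.1 ± 2.43 CPM in Wnt4 cells (log2 change 1.43 ± 0.34; edgeR adjusted p = 0.0318). In the Cited1 split Ptpn13 fell by 0.84 ± 0.21 and the adaptor gene Dok1 by 0.27 ± 0.080 on the log2 scale in Cited1-positive cells (edgeR adjusted p of 0.016 and 0.0465), and 37 of 39 did not pass. DESeq2 called 0 of the 39 in that split. In Lhx1 against Six2 cells Ptpn13 rose by 3.46 ± 0.36 and Grb10 fell by 0.58 ± 0.080 on the log2 scale (edgeR adjusted p of 4.71e-07 and 3.37e-05), and 34 of 36 did not pass.

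The genes most like each member over the 9 sums were ranked by Pearson's r of log2 CPM after each library's mean was removed, among 9561 genes. For Epha4 they included Srpr (r = 0.978) and Spin1 (0.973), and for Epha7 they were Rangrf (0.987), Stk16 (0.985) and Gtse1 (0.977), and for Ephb2 Acd (0.984), Zfp74 (0.976) and Sf3b2 (0.952). For Efnb1 they were Apmap (0.979), Smim20 (0.978) and Actr3 (0.977), for Efnb2 Btbd9 and Acvr2b (0.974 each) and Mob2 (0.963), and for Efna5 Wdr66 (0.984), 9930021J03Rik (0.969) and Slc25a36 (0.947). The 9 sums share libraries and the Lhx1 sums are shallow, so these values are a description of 9 points. Picking the highest of 9561 r values over so few points gives high values by itself, and no r was tested.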

How the data were processed

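The deposited counts hold, for each cell, the UMIs of each gene. The submitters' processing notes name Cell Ranger 1.3.1 as the tool behind the counts the authors deposited, and mm10 as the genome. The sources used here give no later filter. Cells needed at least 1000 detected genes, at most 10% mitochondrial and at most 1% haemoglobin UMIs, which kept 7896 of 7924 barcodes. Libraries go by the suffix of the barcode, and the sources used here do not tie a suffix to a label. No doublets were called, so doublets are taken as still present; leaving out the 6% highest Scrublet scores (scanpy 1.11.5) was an alternative.

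UMIs were summed per library and class (9 sums in 1 fit; 6 in the Cited1 fit) and the sums entered edgeR 4.0.16 (its quasi-likelihood test with TMM and filterByExpr, Benjamini-Hochberg over all genes tested, threshold 0.05, two-sided) with the library as a block, since classes of 1 library come from the same tube. The SE is the log2 change over the square root of F. P-values set differences against the spread over these 3 tubes, which may be technical. The fit moderates the spread of each gene with that of all genes tested. A p-value therefore does not rest on the variation of that gene over 3 tubes alone. CPM are UMIs per 1000000 UMIs of a sum. DESeq2 1.42.0 was an alternative. Intervals and floors (3 counts) cover counting error only. On simulated sums the edgeR step recovered 93% of genes changed by 1 on the log2 scale for Wnt4 against Six2 cells, 58% for Lhx1 against Wnt4 and 57% for Lhx1 against Six2 cells, and of genes changed by 2 it recovered 99%, 88% and 88% in the same order, among 10240 genes. These sums were drawn from 1 profile of Six2 cells without differences between libraries. The changed genes were picked at random over all levels, so the recovery is not that of members with few UMIs. The Cited1 split was not simulated.

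The members and gene lists were chosen with earlier results of these data known. Genes named are the 8 members, other family genes called or over 5 CPM in a class, called signalling partners and the 3 genes most like each member with a mean of at least 5 CPM; Dok1 and the family genes given as near 0 were named after their values were seen. Some items that fall under these rules are not reported here. Gene positions are from GENCODE M21 on mm10, where all 8 IDs matched. Upstream sequences are from RefSeq on GRCm38.p6.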

Additional observations from a re-analysis of the deposited data

Results flagged for a closer look

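Cells with 0 UMIs of Six2, Wnt4 and Lhx1 and fewer than 3 of 6 immune markers, 1324 in all, entered no comparison, and each of the 8 genes was found in them above the limit that a count of 0 allows (0.174 CPM). Of the receptors, Epha4 was at 26.5 CPM, Ephb2 at 16.9, Epha7 at 9.17, Ephb3 at 0.812 and Epha3 at 0.290 CPM, the last on 5 UMIs. Of the ligands, Efnb1 was at 97.7 CPM, Efna5 at 42.6 and Efnb2 at 7.54 CPM.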

How the results depend on the processing

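Of 258 values for single members under the alternatives, 212 kept direction and call, 15 lost and 7 gained a call, and 24 turned sign. No member called with the settings used in the text turned sign. The main counts of genes called in Wnt4 against Six2 cells, Lhx1 against Wnt4 cells, Lhx1 against Six2 cells and the Cited1 split were 1045, 118, 529 and 596. In the same order they were 86, 69, 190 and 1 with no replicate block, and 330, 29, 118 and 76 with cells thinned to 8000 UMIs. Leaving out 1 library gave 269 to 1211, 35 to 162, 118 to 759 and 364 to 495, the low ends without library 1, except library 2 for the Cited1 split, while leaving out library 3 gave 364 in Wnt4 against Six2 and 291 in Lhx1 against Six2 cells. DESeq2 gave 390 in Wnt4 against Six2 cells and 158 in the Cited1 split, and no filter on low counts 259 and 822 in the comparisons with Lhx1 cells.

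Members called in Wnt4 against Six2 cells numbered 1 in the main fit, 0 with DESeq2, with no replicate block and with thinned cells, 2 (Efna5 and Epha7) with no filter and without the 6% highest doublet scores, and 0 to 2 when a library was left out. In Lhx1 against Six2 cells they numbered 0 with no replicate block, with thinned cells and without barcodes of 10 or more A and T, and 0 to 1 when a library was left out. In the Cited1 split 3 became 0 with no replicate block and 1 (Epha4) with DESeq2 and with thinned cells. They became 4, with Efna5 gained, with no filter, without library 1, without ureteric or immune cells and with at least 2 marker UMIs, and 2 without library 2.

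Sign changes were all of uncalled changes, with the cause not tested. In Wnt4 against Six2 cells Epha4 ran from -0.34 to 0.10 over the libraries left out and was 0.25 with thinned cells. Ephb2 ran from -0.29 to 0.14, and was 0.029 with 2 marker UMIs and 0.029 without barcodes rich in A and T. Efnb1 ran from -0.018 to 0.0073, and was 0.0040 with DESeq2 and 0.025 with thinned cells. In Lhx1 against Wnt4 cells Efnb1 ran from -0.020 to 0.23 and was -0.22 with thinned cells. Efna5 ran from -0.31 to 0.15, and was -0.028 with no filter, -0.041 without ureteric or immune cells and -0.091 with thinned cells. Efnb2 ran from -8.16, where the Lhx1 libraries left hold 0 UMIs and the value is no bound, to 0.24. In Lhx1 against Six2 cells Efnb1 ran from -0.038 to 0.23, and was -0.0029 with 2 marker UMIs and -0.19 with thinned cells. In the Cited1 split Ephb2 ran from -0.15 to 0.096, and was 0.055 with thinned cells and 0.0087 without barcodes rich in A and T, and Efnb2 ran from -0.21 to 0.024. Epha7 could not be tested between classes with thinned cells, since too few UMIs were left.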

Other observations

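The share of cells with a ligand transcript was set out for cells with and without a receptor transcript, as a description with no test. Among Six2 cells thinned to 8000 UMIs, Efna5 was found in 23.7%, 26.8% and 26.3% of cells with Epha4 in libraries 1, 2 and 3, and in 24.2%, 30.9% and 25.1% of cells without it. Efnb1 was found in 51.6%, 56.7% and 42.5% of cells with Ephb2 and in 51.3%, 53.0% and 49.1% of cells without it. Efnb1 was found in 50.8%, 55.5% and 53.6% of cells with Epha4 and in 51.4%, 53.0% and 47.1% of cells without it. Efna5 was found in 26.6%, 25.2% and 17.2% of cells with Epha7 and in 23.9%, 30.6% and 25.8% of cells without it. In none of these 4 pairs did the order of cells with and without the receptor hold over all 3 libraries of Six2 cells. In Wnt4 cells Efna5 was found in 17.9%, 22.2% and 18.8% of cells with Epha4, on 7, 4 and 3 cells with both, and in 21.3%, 28.0% and 24.5% of cells without it, lower in each library. The other 3 pairs kept no order over the 3 libraries of Wnt4 cells. They lay apart by as much as 69.2% with Epha4 and 44.5% without it for Efnb1 in library 1, and 70.4% with Ephb2 and 46.1% without it for Efnb1 in library 1. The higher shares rest on few cells, 27 of 39 cells with Epha4 and 19 of 27 cells with Ephb2.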
